A study of Drosophila melanogaster with 4 samples.

Results

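Among the places where RNA polymerase II (Pol II) was found in Drosophila melanogaster embryos, 271 stood alone, with no neighbouring whole-series region within 40 kb on either side. They were chosen by position from the list of Pol II regions that covers the whole series. On the 6 chromosome arms (2L, 2R, 3L, 3R, 4 and X), rows were sorted by start, and a region was kept when the gaps to the previous and to the next region were both at least 40 kb. The 271 are 6.38% of the 4247 regions on the arms (Wilson 95% interval 5.68% to 7.16%), out of 4366 regions in all. Intervals given here cover counting error only, and a region is not a replicate of the experiment.

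The material was whole embryos collected together from 0 to 24 h after laying, so every cell type and age of embryogenesis was mixed, and the labels name no strain or treatment. The assay was ChIP-seq, which enriches the DNA that a protein is crosslinked to and sequences it. The mouse monoclonal antibody CTD4H8, raised against phosphorylated repeats of the tail of the largest subunit, served for 2 separate chromatin extractions, here named replicates 1 and 2. DNA without immunoprecipitation (2 input samples) was not analysed here, and the values therefore stand without a background. In a mixture of cells, strong binding in a few cells and weak binding in many cannot be told apart.

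Pol II transcribes protein-coding genes and many small RNAs. Its tail of repeats is phosphorylated as it starts and then elongates, and in fly embryos it often pauses shortly after the start site, which gives a narrow, strong ChIP signal at promoters, while genes transcribed along their length give broader and weaker signal. Genes are unevenly spaced along fly chromosomes, and several regulators of development lie in long stretches with few other genes. Coordinates follow FlyBase r5.1, with 1 as the first base. No gene, exon or intron was assigned to a region and no sequence is shown, because no genome or annotation of that release was used here.

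Each replicate has its own list of regions, with 5763 regions in replicate 1 and 8872 in replicate 2. Replicate 2 covers 2573 kb and replicate 1 covers 1267 kb. The files give no read counts, so the depth behind each value is unknown. Each of the 271 regions took its outer ends from the replicate regions it overlaps, and for 270 of them the deposited score was the mean of the replicate scores within 0.0001. The authors' score carries no name or unit, and whether chromosomes share its scale is not stated. A region's score is therefore given as a percentile among all whole-series regions of its own arm. A percentile of 50 is the middle of an arm.

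The stretches around the 271 regions were sparse by choice, and their length shows how sparse. The smaller of the 2 gaps had a median of 58.7 kb (quartiles 48.6 and 76.7 kb) and reached 271 kb. The larger gap had a median of 103 kb and reached 707 kb. Counted once each, the 459 flanking gaps spanned 42.2 Mb, which is 35.3% of the length of the arms. Neighbouring members shared 83 of these gaps.

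How far the label "isolated" holds depends on the list. In replicate 1, 214 of the 271 (79.0%, Wilson 95% interval 73.7% to 83.4%) had no further replicate 1 region within 40 kb. In replicate 2 this was so for 121 (44.6%, 38.8% to 50.6%). A total of 109 regions (40.2%, 34.6% to 46.2%) were isolated in both replicate lists, and 45 (16.6%) in neither. The nearest further region lay at a median distance of 52.2 kb in replicate 1 and 33.7 kb in replicate 2, which has the longer list. The 271 are therefore alone among positions found in both extractions, not always within one extraction.

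Isolated regions had higher scores than the other regions of their arms, in both replicates. The median score percentile was 70.5 for the 271 isolated regions (quartiles 48.1 and 86.7) and 48.5 for the other 3976 (quartiles 24.2 and 73.7). In replicate 1 the medians were 63.1 and 49.2, and in replicate 2 they were 71.5 and 48.5. The difference between isolated and other regions was 13.9 points in replicate 1 and 23.0 in replicate 2. Their SD was 6.44 points (n = 2), a spread made from these same values and so no measure of their reliability. With 2 ChIP samples of a single group no test across samples could be made, so this is a description of these lists.

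The higher scores were spread over many of the isolated regions. Of the 271, 120 (44.3%, Wilson 95% interval 38.5% to 50.2%) lay in the upper 25% of their arm, against 25.1% of all arm regions. At the other end 34 (12.5%, 9.12% to 17.0%) lay in the lower 25%, against 25% of all regions. In replicate 1 alone 102 isolated regions (37.6%) lay in the upper 25% of their arm, against a background of 25.1%, and in replicate 2 alone 122 (45.0%) did, against 25.1%. In both replicates at once it was 66 (24.4%, 19.6% to 29.8%), against 14.5% of all arm regions. The scores of isolated regions thus spread over the whole range, with their bulk in the upper part.

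In the whole-series list the median score percentile was higher with each class of distance to the nearer neighbour. The median was 41.8 for the 1100 regions whose nearer neighbour lay within 1 kb, 42.1 at 1 to 5 kb, 50.6 at 5 to 10 kb, 56.8 at 10 to 20 kb and 64.1 at 20 to 40 kb. Within the isolated regions it was 70.1 at 40 to 60 kb (144 regions), 71.8 at 60 to 100 kb (98 regions) and 72.7 from 100 kb (29 regions), so most of the difference was reached before the 40 kb limit. Within single replicates these last classes were not ordered, at 65.1, 62.3 and 65.5 in replicate 1 and 68.0, 75.9 and 71.9 in replicate 2. Replicate 1 was also out of order at the start, with 47.8 under 1 kb and 44.6 at 1 to 5 kb. The 1254 regions with a gap of at least 40 kb on a single side lay in between, at a median percentile of 57.1, and the 2710 with none were at 44.9.

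**Figure D1:**
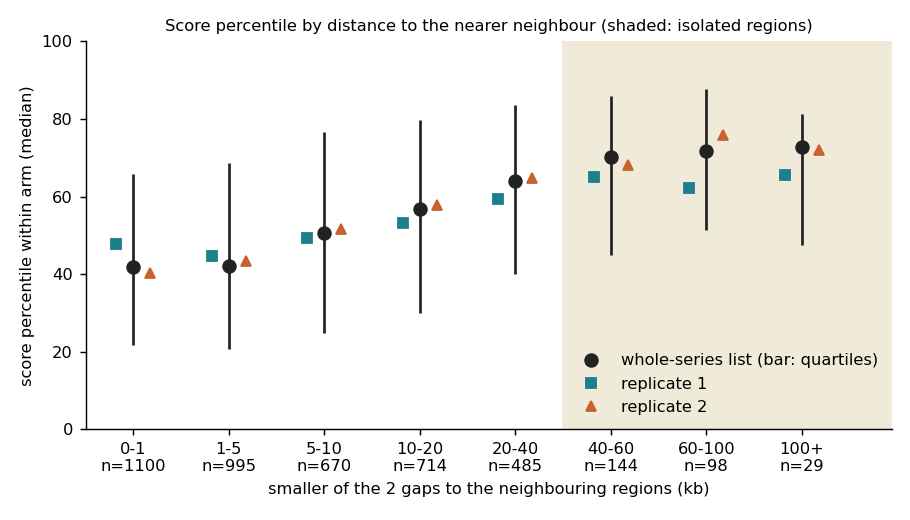
Median score percentile within the arm (vertical axis, 0 to 100) of whole-series regions by the smaller of the 2 gaps to their neighbours (horizontal axis, kb, with the number of regions). Black points are the whole-series list with quartiles as bars, squares replicate 1 and triangles replicate 2; the medians go from 41.8 under 1 kb to 72.7 from 100 kb, and the shaded classes are the isolated regions.

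The difference in score was also present against regions outside close runs. Among the other regions that were at least 1 kb from both neighbours (2864 regions), the median percentile was 51.5, which leaves a difference of 18.9 points to the isolated regions. The order was the same within classes of width, with a difference that depended on the replicate among the narrowest. With arm regions divided into 4 width classes of nearly equal size, the narrowest (22 to 203 bp) had a median percentile of 60.4 for 89 isolated and 44.1 for other regions. In replicate 1 alone this class had 46.1 against 41.1, and in replicate 2 alone 67.1 against 43.1, so most of its difference rested on replicate 2. In the next class (204 to 290 bp) it was 82.7 for 81 isolated and 67.6 for other regions. The wider classes showed the same order, with 71.5 against 42.3 (64 isolated regions of 291 to 533 bp) and 62.5 against 43.2 (37 isolated regions of 534 bp or more).

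The difference in score was seen on 4 of the 5 large arms in both replicates and was small on 3R. In the whole-series list the isolated regions of 2R had a median percentile of 83.3 against 48.8 for the other regions of that arm. On 2L the medians were 76.0 and 48.1, on X 75.8 and 48.1, and on 3L 73.0 and 48.2. On 3R, which holds the most isolated regions, the medians were 57.2 and 49.2. In replicate 1 the isolated regions of 3R were at 50.9 and its other regions at 49.9, a difference of under 1.5 points, and in replicate 2 they were at 57.0 and 49.3. Without 3R the median percentile of the remaining 190 isolated regions was 76.1, against 48.4 for the others.

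**Figure D2:**
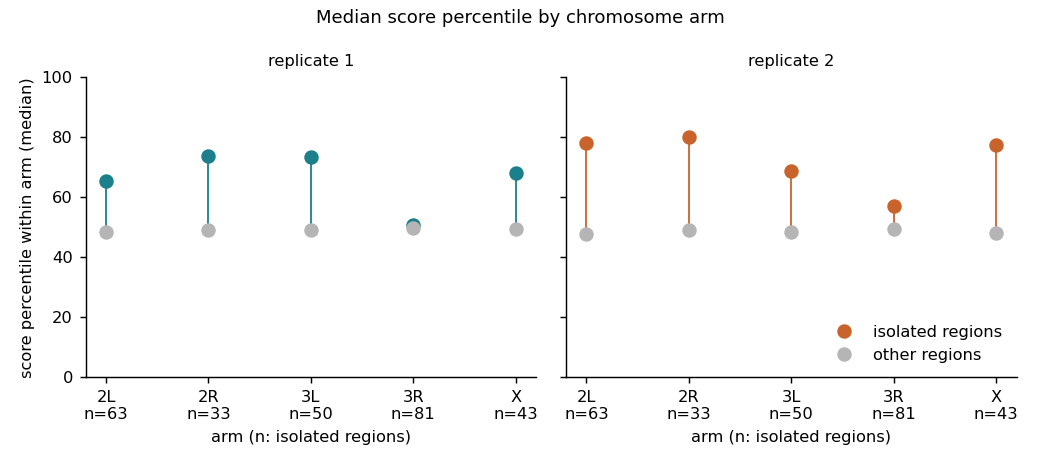
Median score percentile within the arm (vertical axis) on the 5 large arms (horizontal axis, with the number of isolated regions) in replicate 1 (left) and replicate 2 (right). Coloured points are isolated regions and grey points the other regions of the arm; on 3R the pair lies close together (50.9 and 49.9 in replicate 1), and on the other 4 arms the isolated regions lie at 65.4 or higher.

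Arm 3R also held the largest share of isolated regions. A total of 81 of its 894 regions were isolated (9.06%, Wilson 95% interval 7.35% to 11.1%). Arm 2L held 63 of 800 (7.88%, 6.20% to 9.95%), X 43 of 697 (6.17%, 4.61% to 8.21%) and 3L 50 of 924 (5.41%, 4.13% to 7.06%). Arm 2R held 33 of 881 (3.75%, 2.68% to 5.21%), and its interval does not meet those of 3R and 2L. The small chromosome 4 held 1 of 51. These shares follow from the spacing that the rule uses and are given as a description.

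Isolated regions were found all along the large arms. With each arm divided into 5 equal parts from its free end to the centromere, the isolated share over the 5 large arms was 6.05%, 5.79%, 5.94%, 8.36% and 6.10%. The fourth had the highest share. On 2L, 23 of the 126 regions of that part were isolated (18.3%, Wilson 95% interval 12.5% to 25.9%). It is named because this was the highest share of any part of a single arm. The spacing that the rule uses fixes these shares, so they are a description. Scores of isolated regions were above those of the other regions in each of the 5 parts, with median percentiles of 78.6, 72.8, 62.5, 71.7 and 64.5 against 52.2, 48.3, 48.6, 45.5 and 46.5. On single arms the order was turned round in the third stretch of 3L (37.4 against 46.3, from 9 isolated regions) and in the second of 3R (44.4 against 51.0, from 11).

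Isolated regions were somewhat narrower than the others, with fewer broad regions among them, and mostly in replicate 2. At the median they were 245 bp wide (quartiles 194.5 and 373 bp), against 296 bp for the others (204 and 546 bp). A width depends on the caller's threshold and on library fragments of 150 to 200 bp, and is not the extent of the polymerase. In replicate 2 the medians were 241 and 279 bp, but in replicate 1 they were 172 and 178 bp, a much smaller difference. The SD between the replicate differences was 22.6 bp (n = 2). Against other regions at least 1 kb from both neighbours the difference was -18.5 bp, in place of -51 bp. Without 3R the replicate 1 order was turned round, at 182 bp for isolated and 174 bp for other regions.

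The upper end of the widths differed more than the lower end. Only 7 of the 271 isolated regions (2.58%, Wilson 95% interval 1.26% to 5.23%) reached a width of 1000 bp, against 7.21% of all arm regions. Regions under 150 bp numbered 17 (6.27%, 3.95% to 9.82%), near the 7.32% of all arm regions. In the widest of the 4 width classes 3.49% of regions were isolated, and in the narrowest 8.34% were.

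Like the other regions, an isolated region was most often a single region at nearly the same place in both extractions. Of the 271, 260 (95.9%, Wilson 95% interval 92.9% to 97.7%) came from 1 region per replicate, against 93.8% of the other regions. The centres of the replicate regions lay a median of 11 bp apart (quartiles 5 and 41.5 bp), against 18.5 bp (7.5 and 63 bp) for the other regions. The replicate 1 region lay wholly within the replicate 2 region in 231 of these 260 (88.8%, 84.4% to 92.1%), and the reverse was seen in 2. For the other regions the first share was 79.2% (77.9% to 80.5%). Where an isolated region joined several, 10 times this was in replicate 1, with up to 3 regions, and once in replicate 2.

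Over all arm regions, scores of isolated regions leaned towards replicate 2 more than those of other regions. The median log2 ratio of the replicate 2 score over the replicate 1 score was 0.35 for isolated regions (binomial 95% interval of the median 0.24 to 0.43) and 0.19 for the others (0.17 to 0.21). With the rule applied to the upper 50% of each arm by score, the medians were 0.36 for 455 isolated regions and 0.33 for the others. Leaving out lower-scoring neighbours changed which regions counted as isolated. These values therefore do not show whether the high-scoring members of the 271 differed from other high-scoring regions. Replicate 2 scored higher in 197 of the 271 (72.7%, Wilson 95% interval 67.1% to 77.7%), against 64.5% of all arm regions. It was at least 2-fold higher in 40 (14.8%, 11.03% to 19.5%), against 9.23% of all arm regions. Replicate 1 was at least 2-fold higher in 4 (1.48%), against 1.98%. Scores of a single extraction are on an unknown scale, so the ratio shows an order between sets and not an amount of Pol II.

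The scatter between extractions was wide for isolated regions. The SD of the log2 ratio over regions was 0.66 for isolated and 0.59 for other regions. Across the 271 isolated regions Spearman's rho of the within-arm percentiles was 0.49 and Pearson's r of log2 scores was 0.50, and across the other regions they were 0.55 and 0.56. These are correlations across regions of the same libraries and are given as a description.

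**Figure D3:**
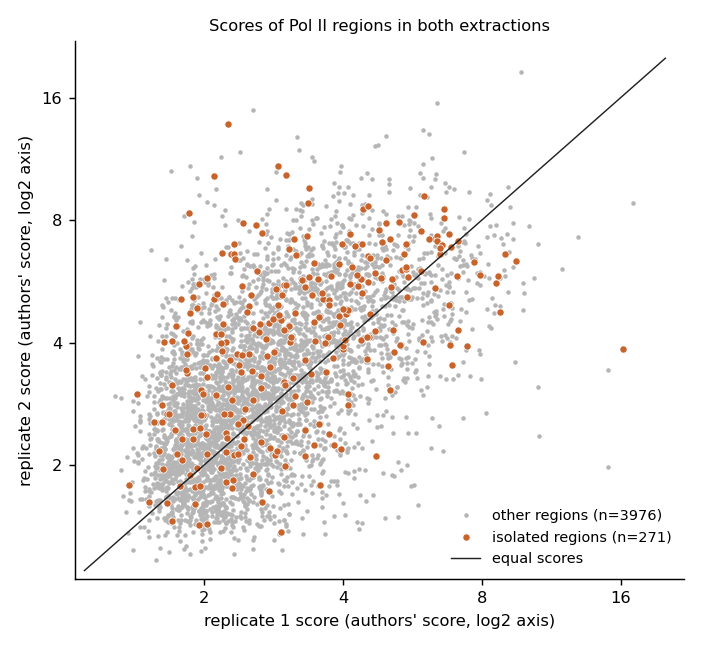
Scores of whole-series regions in replicate 1 (horizontal, log2 axis) and replicate 2 (vertical, log2 axis), as given by the authors. Orange points are the 271 isolated regions, grey points the 3976 other regions of the arms, and the line marks equal scores; 197 of the isolated regions lie above the line.

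The members with the largest smaller gap differed widely in width and score. The most remote by these gaps was a region of 1073 bp on 2R (674669 to 675741). It had 271 kb free of whole-series regions on one side and 707 kb on the other. In replicate 2 it was not isolated, and its gaps held 6 replicate 1 and 4 replicate 2 regions. Its scores were 1.95 and 1.42 in replicates 1 and 2 (mean 1.69 ± 0.37, SD, n = 2), the lowest percentile of all isolated regions (2.50). On the far side of the same 707 kb gap, a region of 209 bp on 2R (1383231 to 1383439) scored 6.89 in replicate 1 and 3.53 in replicate 2. That region was isolated in neither replicate list. The members at the ends of the longest gap thus stood near the bottom and near the top (percentile 89.0) of their arm.

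Several of the most remote members were compact and lay above the middle of their arm in both extractions. On X, the region at 7502332 to 7502657 (326 bp, gaps of 266 and 284 kb) scored 3.30 in replicate 1 and 5.47 in replicate 2. The region at 12097597 to 12098056 on X (460 bp, smaller gap 196 kb) had nearly equal scores, 4.05 in replicate 1 and 4.06 in replicate 2. On 2R, the region at 17759444 to 17759688 (245 bp, smaller gap 154 kb) scored 8.96 and 6.62, with a mean of 7.79 ± 1.66 (SD, n = 2). It was the only region both among the 10 most remote and among the 5 of highest percentile (99.1). On 2R at 19091336 to 19091611 (276 bp) the scores were 5.53 and 5.78, and on X at 2867710 to 2867961 (252 bp) they were 6.005 and 9.19. A pair of compact members among the 10 most remote were weaker, with scores of 2.13 and 2.97 on 3L at 13659755 to 13660049 and of 1.81 and 4.05 on 2L at 17130962 to 17131183. Of those named in this paragraph, the X region at 7502332 was isolated in replicate 2 alone. The X region at 2867710 and the 2L region at 17130962 were isolated in replicate 1 alone, and the rest in both replicate lists.

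The widest of the 4247 arm regions was itself isolated. On 2R at 15998673 to 16003844 it spanned 5172 bp, with gaps of 280 and 146 kb, and its score was at percentile 54.5 of its arm. Replicate 1 had 1 region of 4791 bp there, scoring 3.15, while replicate 2 had 2 regions covering 4916 bp with a mean score of 2.96. The next in width were much smaller. On 2L, regions at 15333557 to 15335430 (1874 bp) and at 15476914 to 15478335 (1422 bp) joined 2 and 3 replicate 1 regions to a single one of replicate 2. On 3R the regions at 24161126 to 24162239 (1114 bp) and 7645265 to 7646377 (1113 bp) were at percentiles 2.80 and 17.9.

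**Figure D4:**
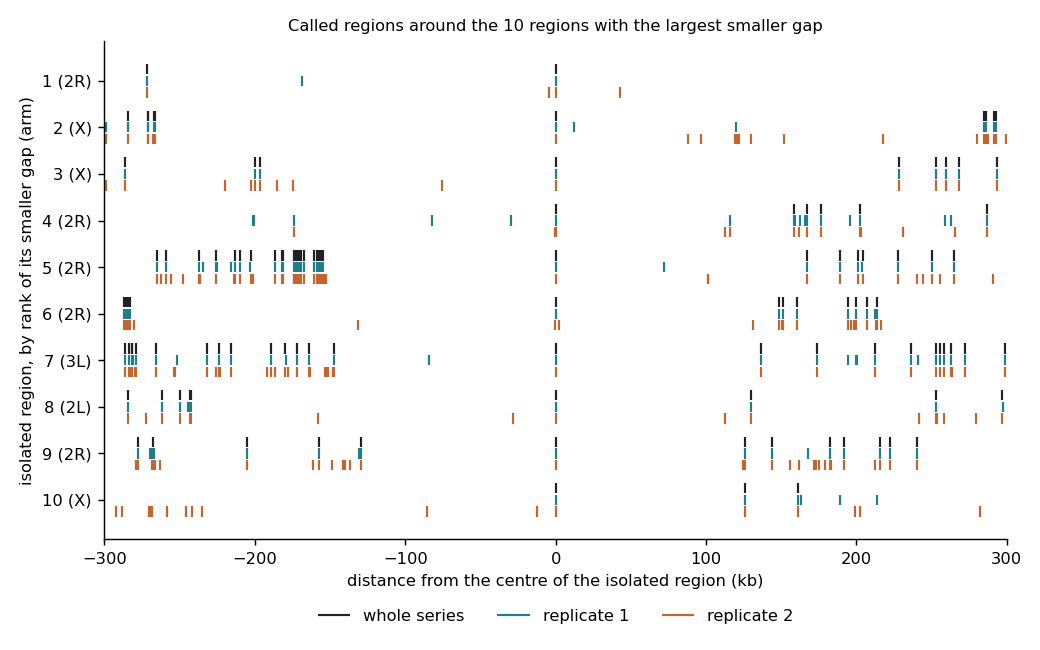
Called regions within 300 kb of the 10 isolated regions with the largest smaller gap, by distance from the region's centre (horizontal axis, kb), with 1 row per region (arm in brackets). Black ticks are whole-series regions, blue-green ticks replicate 1 and orange ticks replicate 2; coloured ticks without a black one are regions called in a single extraction.

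The highest score percentile belonged to a region that rested on replicate 1. On 2L at 20223064 to 20223244 (181 bp) replicate 1 gave 16.2 and replicate 2 gave 3.85 (mean 10.03 ± 8.75, SD, n = 2). In replicate 2 alone it was at percentile 59.0 of its arm. The other 4 of highest percentile were high in both. On 2L at 4283030 to 4283542 (513 bp) the scores were 9.49 and 6.33, and on 2L at 714836 to 715049 (214 bp) 6.62 and 8.08. On 3R at 22624679 to 22624951 (273 bp) they were 6.16 and 7.20, at percentiles 97.2 and 98.0 of the arm. The lowest percentiles after the 2R region above belonged to 3 regions of 3R, at 8106678 to 8106976 (scores 1.52 and 1.63), 678319 to 678682 (1.37 and 1.79) and 24161126 to 24162239 (1.70 and 1.46), and a region of 2L at 15113326 to 15114186 (2.03 and 1.43). All 5 of lowest percentile scored 2.03 or less in each extraction.

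Near the 40 kb limit regions on both sides were alike in their range. The 5 members just inside it had smaller gaps of 40.1 to 40.7 kb and percentiles from 2.68 to 97.5. They lay on 3R (at 1149426, 7645265 and 678319), 3L (at 8905557) and 2L (at 16491502). The 5 regions just outside, with a smaller gap of 39.1 to 39.97 kb and the other gap over 40 kb, had percentiles from 2.91 to 85.4. They lay on 3R (at 20923314, 20963749 and 2718960), X (at 2439313) and 3L (at 3471934).

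Chromosome 4, small and largely heterochromatic, had a single isolated region, at 413920 to 414048 (129 bp). Its scores of 2.24 and 2.33 in replicates 1 and 2 (mean 2.28 ± 0.06, SD, n = 2) put it at percentile 19.6. Its flanking gaps of 79.4 and 44.2 kb held 15 regions of replicate 2 and none of replicate 1. That stretch was therefore sparse in the whole-series list and in replicate 1, but not in replicate 2.

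The flanking gaps were not empty of called regions. By the rule they hold no region found in both extractions, so every region in them was called in a single one, and none overlapped the other list. Replicate 1 had 184 regions in them, or 0.436 per 100 kb of gap (exact Poisson 95% interval 0.375 to 0.503), and replicate 2 had 694, or 1.64 per 100 kb (1.52 to 1.77). Of the 459 gaps, 145 (31.6%, Wilson 95% interval 27.5% to 36.0%) had none in either replicate. This was so for 85 of the 442 other gaps of at least 40 kb (19.2%, 15.8% to 23.2%), and for 52.8% of the gaps under 40 kb. Around a given member, replicate 1 added 0 to 9 regions (median 0) and replicate 2 added 0 to 16 (median 2). For 26 of the 271 (9.59%) both gaps were empty in both lists.

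Gaps beside isolated regions held fewer single-extraction regions than other long gaps, in replicate 2. The 442 other gaps of at least 40 kb held 2.52 replicate 2 regions per 100 kb (exact Poisson 95% interval 2.36 to 2.69), against the 1.64 beside isolated regions. In replicate 1 the values were 0.487 (0.418 to 0.565) and 0.436, with intervals that overlap. Gaps under 40 kb were fuller in both, at 1.92 per 100 kb in replicate 1 and 6.91 in replicate 2. Flanking gaps were also longer than the other long gaps (median 74.7 against 66.3 kb), and the part of gap length in the difference was not tested. A list holds what passed the caller's threshold, so the absence of a call does not show absence of Pol II. How much of these gaps reads of 36 nt can be placed on was not examined.

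At the median, the regions in the flanking gaps were narrower and lower in score than those in isolated regions. Single ones scored high, up to 21.6 in replicate 2, where the highest in isolated regions was 13.8 and in other gaps 16.5. In replicate 1 the highest were 5.77 in flanking gaps, 16.2 in isolated regions and 12.3 in other gaps. Those of replicate 1 were 49.5 bp wide at the median, against 168 bp for the 283 replicate 1 regions that make up the isolated regions. Those of replicate 2 were 121 bp wide, against 242 bp for the 272 that do. Their median score percentile within arm and replicate list was 40.1 in replicate 1 and 40.1 in replicate 2, against 67.5 and 83.2 for the regions in isolated members. Single-extraction regions in other gaps were similar, with median widths of 55 and 129 bp and percentiles of 36.8 and 34.7.

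Some single-extraction regions of both replicates lay close to each other without overlapping. Of the 184 replicate 1 regions in flanking gaps, 14 (7.61%, Wilson 95% interval 4.59% to 12.4%) had a replicate 2 region within 200 bp, and 44 (23.9%, 18.3% to 30.6%) had one within 1000 bp. In other gaps of at least 40 kb the latter share was 27.3% (21.2% to 34.3%). A rule with a tolerance in place of an overlap of at least 1 bp would therefore have put further regions in some of these gaps.

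Single-extraction regions were densest next to an isolated region and thinned out with distance. In replicate 2 they numbered 5.17 per 100 kb (exact Poisson 95% interval 3.43 to 7.47, 28 regions) within 1 kb of its edge, 2.44 (1.83 to 3.20) at 1 to 5 kb and 1.34 (1.13 to 1.57) at 20 to 40 kb. In replicate 1 they numbered 2.58 (1.41 to 4.33) within 1 kb, from 14 regions, and 0.268 (0.179 to 0.384) at 20 to 40 kb, from 29 regions. Without the classes under 20 regions, replicate 1 keeps 0.387 (0.240 to 0.592) at 10 to 20 kb and 0.268 beyond, whose intervals overlap. Other regions beside a gap of at least 40 kb showed the same order at higher density in replicate 2, with 9.76 (8.11 to 11.6) within 1 kb and 2.16 (1.98 to 2.35) at 20 to 40 kb. Some of these sides are the far ends of gaps that flank an isolated region. The compared sets are therefore not separate, and a region in such a gap can be counted in both.

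**Figure D5:**
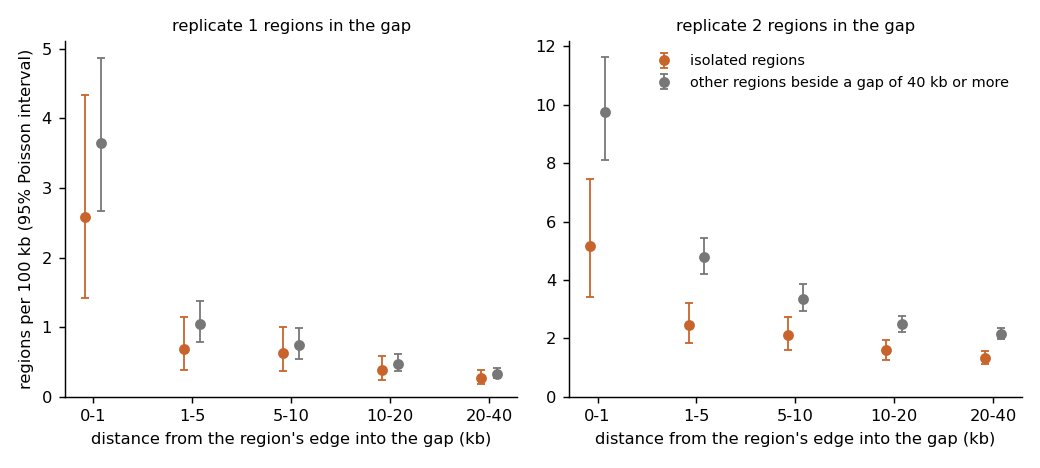
Regions of replicate 1 (left) and replicate 2 (right) lying in gaps of at least 40 kb, per 100 kb (vertical axes, from 0, on different scales), by distance from the edge of the whole-series region (horizontal axis, kb). Orange points are the 542 sides of isolated regions, grey points the 1260 sides of other regions beside such a gap, and bars are exact Poisson 95% intervals. Some grey sides are the far ends of gaps that flank an isolated region, so the sets share gaps. In replicate 2 the orange points lie below the grey ones at every distance.

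The fullest surroundings were found around 5 members. On X at 17724786 to 17725166 the flanking gaps held 3 regions of replicate 1 and 16 of replicate 2, and the member itself scored 3.73 and 4.95. On 2L at 11271724 to 11272258 they held 9 and 7, and on 2R at 14120200 to 14120880 they held 6 and 8. The X region at 2867710 to 2867961 had 14 replicate 2 regions in its gaps and none of replicate 1, and the chromosome 4 region had 15 and none. For the first 3 of these, single-extraction regions came from both replicates.

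The rule was also applied to each replicate list by itself, so that the other list had no part in the choice. In replicate 1, 230 of the 5578 arm regions were isolated (4.12%), and 211 of these (91.7%, Wilson 95% interval 87.5% to 94.6%) overlapped a replicate 2 region. Of the other replicate 1 regions 79.9% did (78.8% to 81.0%). In replicate 2, 172 of 8537 regions were isolated (2.01%), and 121 of these (70.3%, 63.1% to 76.7%) overlapped a replicate 1 region, against 50.02% (48.9% to 51.1%) of the others. Before width was matched, regions that stood alone in one extraction were thus found again in the other more often than all other regions of the same list, in both directions.

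At matched width the difference was clear in 2 classes of replicate 2. Among replicate 2 regions of 207 to 368 bp, 44 of 47 isolated ones overlapped replicate 1 (93.6%, Wilson 95% interval 82.8% to 97.8%), against 67.3% (65.2% to 69.3%) of the others. Among those of 113 to 206 bp the shares were 65.0% (54.1% to 74.5%) and 47.6% (45.5% to 49.8%). In the narrowest class (1 to 112 bp) they were 11.1% of 18 and 11.6%, and in the widest (from 369 bp) 85.2% and 74.3%, with overlapping intervals in both. In replicate 1 the isolated share was the higher in every width class, from 60.6% against 46.8% at 1 to 84 bp to 100% against 94.2% from 240 bp, but the intervals overlapped in each. The isolated regions that overlapped the other list had higher scores in their own list than those that did not, at median percentiles of 67.7 and 49.6 in replicate 1 and 86.9 and 39.6 in replicate 2. The same held for the other regions, at 54.2 and 37.7 in replicate 1 and 66.4 and 35.5 in replicate 2. Score was not matched. Isolated regions scored higher in their own list than the others, at 66.3 against 49.5 in replicate 1 and 78.9 against 49.5 in replicate 2. The part of score in the overlap was not tested.

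Members that were isolated in both replicate lists had the lowest median width, with no order in score that both replicates showed. The median width was 211 bp for these 109, 248 bp for the 105 isolated in replicate 1 alone, 380 bp for the 12 isolated in replicate 2 alone and 326 bp for the 45 isolated in neither. In the same order, the median score percentiles in the whole-series list were 72.8, 67.1, 75.1 and 63.6. In replicate 1 they lay close together, at 62.4, 65.3, 67.0 and 62.1, and in replicate 2 they were 77.5, 68.3, 75.5 and 60.5. Of the 109, 24 (22.02%, Wilson 95% interval 15.3% to 30.7%) were in the upper 25% of their arm in both replicates, against 24.4% of all 271 isolated regions and 14.5% of all arm regions, and they were 146 to 513 bp wide. They lay on 2L (6), X (6), 2R (4), 3L (4) and 3R (4).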

How the data were processed

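Pol II ChIP-seq was made from 2 chromatin extractions of embryos of 0 to 24 h, with 2 input samples that were not analysed here. The deposited lists use FlyBase r5.1 coordinates and name PeakSeq as their source, per the file headers. Aligner, control and calling cutoff were not given in the sources used here. The authors' score of each region, deposited without a unit, served only to rank and describe regions. Each extraction has a list of its own, and every arm region of the whole-series list overlaps both and takes their outer ends.

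Gaps, within-arm percentiles (ties at their mean rank) and overlaps of at least 1 bp were computed with Python 3.11.15, NumPy 2.4.6, pandas 2.3.3 and SciPy 1.17.1, and figures with Matplotlib 3.10.9. A replicate score is the mean of the regions overlapped. Arm lengths are furthest region ends. The routines were tested on simulated data. Depth is unknown.

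No p-value is given, since there are 2 ChIP samples and regions are not replicates. Extractions are separate per the labels, which do not say whether the embryo collections were. The members, rule and sets were chosen with earlier results of these data known. The regions named are the 10 with the largest smaller gap, the 5 highest and 5 lowest percentiles, the 5 widest, the 5 with the fullest gaps, the 5 on each side of the limit, and chromosome 4. Left out were the scaffolds outside the arms. The sets of regions 1 kb or more apart, the arms without 3R, and the rule within each replicate list were chosen after the data were seen.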

Additional observations from a re-analysis of the deposited data

How the results depend on the processing

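Of 62 recomputed values, 37 moved by less than the spread between replicates or the 95% interval, and 25 moved further. Only the differences and the log2 ratios could change sign, and none of these did. Widths, percentiles, densities and shares cannot be negative. The difference in score percentile between isolated and other regions was 13.9 to 23.0 points, and the median percentile 63.1 to 71.5, with either replicate alone. The median width with either replicate alone was 172 to 241 bp, and its difference from other regions -38 to -6 bp. Against regions, in a set added after the data were seen, at least 1 kb from both neighbours that difference was -18.5 bp. By width in place of score the median percentile was 39.7 for isolated and 50.9 for other regions, the reverse of the order by score. A minimum gap of 20 kb made 17.8% of arm regions isolated, with 0.519 replicate 1 and 2.25 replicate 2 regions per 100 kb of flanking gap. A minimum gap of 60 kb made 2.99% isolated, with 1.33 replicate 2 regions per 100 kb and 72.4% isolated in replicate 1. In the upper 50% of each arm by score, which by construction leaves longer gaps with more regions in them, 21.4% were isolated and 34.5% and 21.1% of these were isolated in replicates 1 and 2. The gaps then held 2.37 and 4.51 regions per 100 kb, the median percentile was 54.8, and the differences from other regions were 6.24 points and -16 bp. Replicate regions of at least 50 bp gave 0.218 and 1.29 per 100 kb of flanking gap, and the upper 50% by score 0.140 and 0.599, with fewer regions by construction. Gaps without the 1 kb beside each region, where replicate 2 regions were densest (5.17 per 100 kb), gave 1.51 in replicate 2. Where no construction is named, the cause was not tested. No paired analysis was possible because both ChIP samples form a single group. Without read counts, no depth could be set beside the differing lengths of the lists.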

Other observations

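Some isolated regions followed each other along an arm, which the gaps used by the rule fix in part, so their number is a description. Of the 271, 137 had another isolated region as a neighbour, and 134 did not. There were 35 runs of 2, 11 of 3, 7 of 4 and 1 of 6 consecutive isolated regions. The run of 6, singled out after its values were seen, lay on 2L at 15113326 to 15552859 and spanned 440 kb. Over that span replicate 1 held 9 regions and replicate 2 held 9, and the widths of the 6 went from 136 to 1874 bp. Their score percentiles ran from 3.25 to 84.9, so regions near the bottom and in the upper part of the arm followed each other. The longest span of 4 was 493 kb on 3R (23873207 to 24366108), with percentiles of 2.80 to 98.4. On 3L, the run at 18178616 to 18433117 held 4 replicate 1 and 4 replicate 2 regions in 255 kb, the same number as its isolated regions.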
